A study of Mus musculus with 10 samples.

Results

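The fibroblast growth factor (FGF) genes followed here were the 22 mouse genes for FGF ligands and FGF homologous factors, the 5 FGF receptor genes, the 2 genes for secreted FGF-binding proteins and the 2 Klotho co-receptor genes. They were taken by gene symbol from a fixed list and made up 31 of the 56750 features of the count table. All 31 had at least 1 count in some library. RNA was compared between CIC::DUX4 sarcomas of the dFLEx CDS mouse and sarcomas of KP mice, to ask how transcription in tumors carrying the fusion differs from that in another mouse sarcoma.

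For dFLEx there were 3 tumors (170019, 170024 and 170025), all of the genotype dFLEx CDS +/-. In this line the fusion of the repressor CIC with the transcription factor DUX4 carries an HA tag, sits in a Rosa26 targeting construct and is switched on only where Cre and FLPE have both acted. Plasmids for these recombinases were electroporated into the gastrocnemius muscle, so the tumors began in hind limb muscle with no defined cell of origin. For KP there were 2 tumors (3800 and 3802), with a genotype that includes p53fl/fl, floxed alleles of the p53 gene. How and where the KP tumors were started, and the age of the KP mice, are not given in the sources used here, whereas dFLEx mice were young adults at electroporation. No treatment is listed for either group. The groups therefore differed in every allele at once, and untransformed muscle was not analysed here.

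FGFs are secreted proteins that bind heparan sulfate and activate receptor tyrosine kinases, which pass the signal through FRS2 and GRB2 to the RAS and ERK cascade. The endocrine FGFs need a Klotho protein as co-receptor, whereas the FGF homologous factors stay inside the cell and regulate sodium channels. In limb and muscle the family is known for outgrowth of the limb bud, for the growth of muscle progenitors and for control of the growth plate, and CIC is known as a repressor of genes that receptor tyrosine kinase signaling switches on.

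RNA of each tumor had been split into duplicate libraries, and 9 of the 10 labelled libraries were analysed, with tumor 3802 represented by 1. Library totals ran from 20503474 to 46302223 counts, and levels are given in CPM, the count of a gene relative to the total of its tumor after scaling by edgeR's TMM factors. Tumor 3802 stood apart: it had the lowest total and yet the most features with a count (36904, against 24280 to 31768 in the other 8 libraries). Olfactory and vomeronasal receptor genes, used as a gauge of reads outside expressed genes, had 0.107 CPM per kilobase of exon in 3802 and between 0.00284 and 0.0242 in the other tumors. Fold changes are therefore also given without this tumor for the members and pathway genes described. The transgene followed the labels, with 105, 202 and 423 CPM in the dFLEx tumors, 0 in 3800 and 0.244 in 3802. Of 24743 tested genes, 25 were higher and 20 lower in dFLEx tumors at an adjusted p under 0.05 (edgeR quasi-likelihood test). That split was 17 and 33 with upper-quartile scaling and 14 and 20 with library totals. The median log2 fold change over all tested genes, -0.18 with TMM scaling, was -0.34 and -0.47 under these scalings. In bulk tumors, fewer cells of a type and less RNA per cell cannot be told apart.

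No FGF gene passed the threshold. Of the 31 genes, 29 had enough counts to be tested, Fgf4 and Fgf20 did not, and edgeR called 0 of them in either direction, beside 0.101% of all tested genes called higher and 0.0808% called lower. At an unadjusted p under 0.05 there were 6, of which Fgfr3, Fgfrl1 and Fgfbp3 were higher and Fgf5, Fgf12 and Fgfr4 lower in dFLEx tumors. These 3 and 3 genes made up 10.3% and 10.3% of the tested members, beside 5.65% and 4.93% of all tested genes. DESeq2 on the same tumor sums called 4 (Fgf12, Fgfr3, Fgfr4 and Fgfbp3), and limma-voom, treating tumor as a random effect, called 1 (Fgfbp3). The level in each dFLEx tumor exceeded that in both KP tumors for 6 members (20.7%, beside 13.7% of all tested genes) and below both for 3 (10.3%, beside 11.7%), whereas the groups overlapped for 20. The share below was thus near that of all genes.

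The fitted direction differed by the role of the gene and, for the ligands and Fgfr1, changed with the tumors and the method used. Over all 24743 tested genes, 10803 were higher and 13940 lower in dFLEx tumors. Receptors were mostly higher in dFLEx tumors, 4 of 5 with a median log2 fold change of 1.64. The count was 3 of 5, with Fgfr1 lower, under library totals, without 3802 and without 170025. It was also 3 of 5 in the edgeR and DESeq2 fits that took every library as a sample. Of the 20 tested ligands and homologous factors, 16 were lower in dFLEx tumors with a median of -0.83, but without 3802 only 8 were lower and the median was 1.48. Limma-voom, which tested 16 of them with all tumors included, put 8 lower with a median of -0.08, and the libraries with the duplicate number as a block put 11 of 16 lower. With the per-kilobase background of each tumor subtracted, 16 of the 19 that could still be tested were lower.

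**Figure D1:**
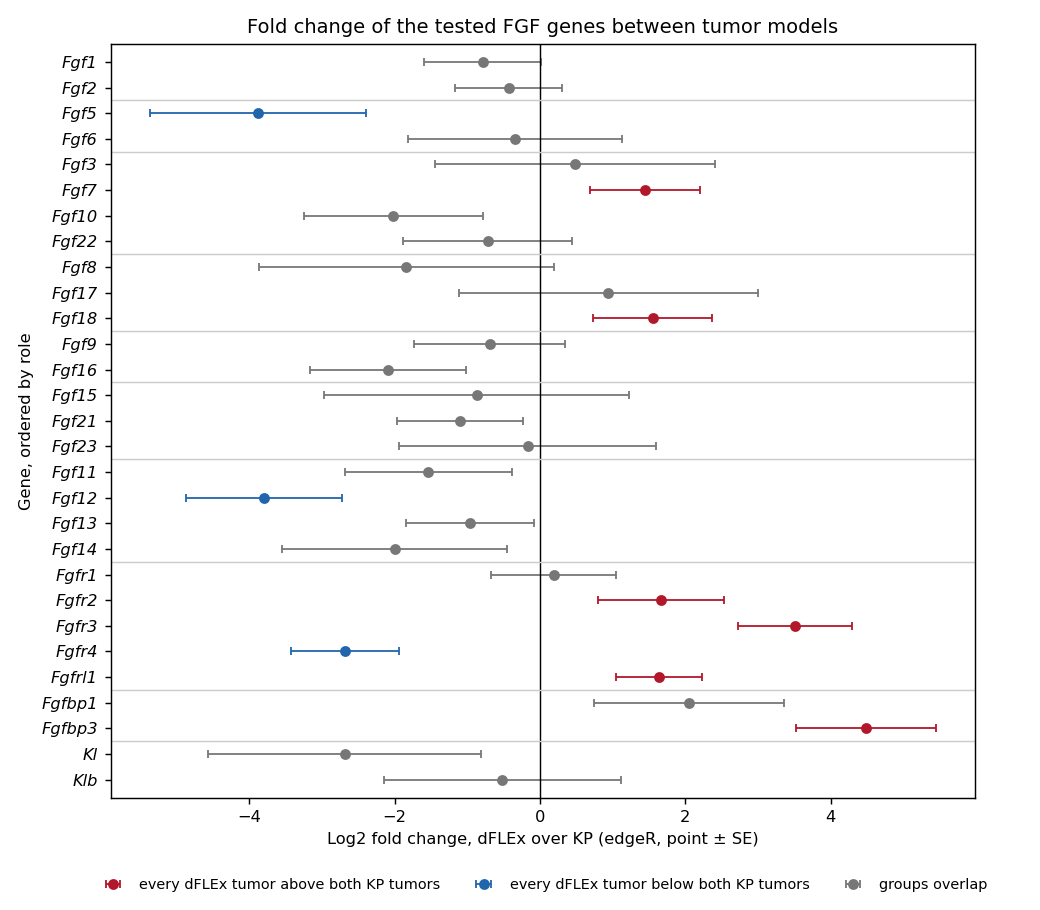
Log2 fold change of dFLEx over KP tumors (x axis) for the 29 tested FGF genes (y axis, ordered by role, grey lines between roles), as the edgeR estimate with its standard error. The 6 red genes lie above zero, with Fgfbp3 at 4.49 and Fgfr3 at 3.51, and the 3 blue genes lie below it, with Fgf12 at -3.80.

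The fusion keeps the DNA-binding domain of CIC, which recognizes octamers, but its binding was not measured here. The promoter of the binding-protein gene Fgfbp3, picked as the member with the smallest p, is shown before the values. The 250 bases before its start site are given from RefSeq (GRCm38.p6, chr19:36919600-36919849, minus strand, another build than that of the counts), with the octamer in capitals.

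Fgfbp3: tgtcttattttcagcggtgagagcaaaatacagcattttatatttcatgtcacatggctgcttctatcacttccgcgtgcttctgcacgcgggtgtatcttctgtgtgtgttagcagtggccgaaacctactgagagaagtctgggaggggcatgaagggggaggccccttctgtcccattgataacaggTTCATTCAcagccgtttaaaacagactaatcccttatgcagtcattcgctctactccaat

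The 4 octamers searched, on both strands, were TGAATGAA, TGAATGGA, TCAATGAA and TCAATGGA, within 250 bases before and 50 bases after each start. RefSeq promoters matched 24 of the 31 members, with 31 start sites. An octamer lay in 4 of these 31 windows (12.9%), beside 1260 of all 32851 promoter windows (3.84%). In Fgfbp3 the match begins 60 bases before the start and reads TGAATGAA on the other strand. The other matches before a start, shown with 11 bases on each side so that they can be compared with that of Fgfbp3, were in the endocrine ligand genes Fgf21 (172 bases before, other strand) and Fgf23 (96 bases before, gene strand).

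Fgf21: gcctagcccttTTCATTCAgacccctgttg
Fgf23: ggctttttcttTGAATGGAtgattacaaca

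The last match, in Klb, lay after the start site. These are matches of letters only. Of the members that hold an octamer, Fgf21, Fgf23 and Klb overlapped between groups. Fgfbp3 lay above both KP tumors in every dFLEx tumor, as 13.7% of all tested genes did. No other separated member held a match in the windows searched. Whether the octamer has a part in the level of Fgfbp3 was not tested.

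Fgfbp3 was the most abundant member per kilobase in every dFLEx tumor. It encodes a secreted protein that binds FGFs and releases them from heparan sulfate, and lies on chromosome 19 (36894950 to 36897015, GRCm39). Its level was 218, 172 and 231 CPM in dFLEx tumors 170019, 170024 and 170025, and 16 and 2.44 CPM in KP tumors 3800 and 3802. Even the lowest dFLEx tumor was thus 10.8-fold above the higher KP tumor, while the dFLEx tumors spanned 1.34-fold. Means were 207 ± 30.8 CPM (SD, n = 3) and 9.20 ± 9.56 CPM (SD, n = 2), and the log2 fold change was 4.49 (SE 0.96, edgeR adjusted p = 0.123). Without 3802 it was 3.72 (edgeR adjusted p = 0.0763). Over the 18 alternatives the adjusted p ran from 1.23e-19, where every library counted as a sample, to 0.278, and 6 alternatives called the gene. Over the 5 tumors an exact permutation test (two-sided) gave p = 0.2, the smallest that 3 tumors against 2 allow, and the same value held for each of the 9 separated members. Fgfbp1, the other binding protein, was low, at 0.199, 1.66 and 1.03 CPM against 0.296 and 0.163 CPM, and its groups overlapped.

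**Figure D2:**
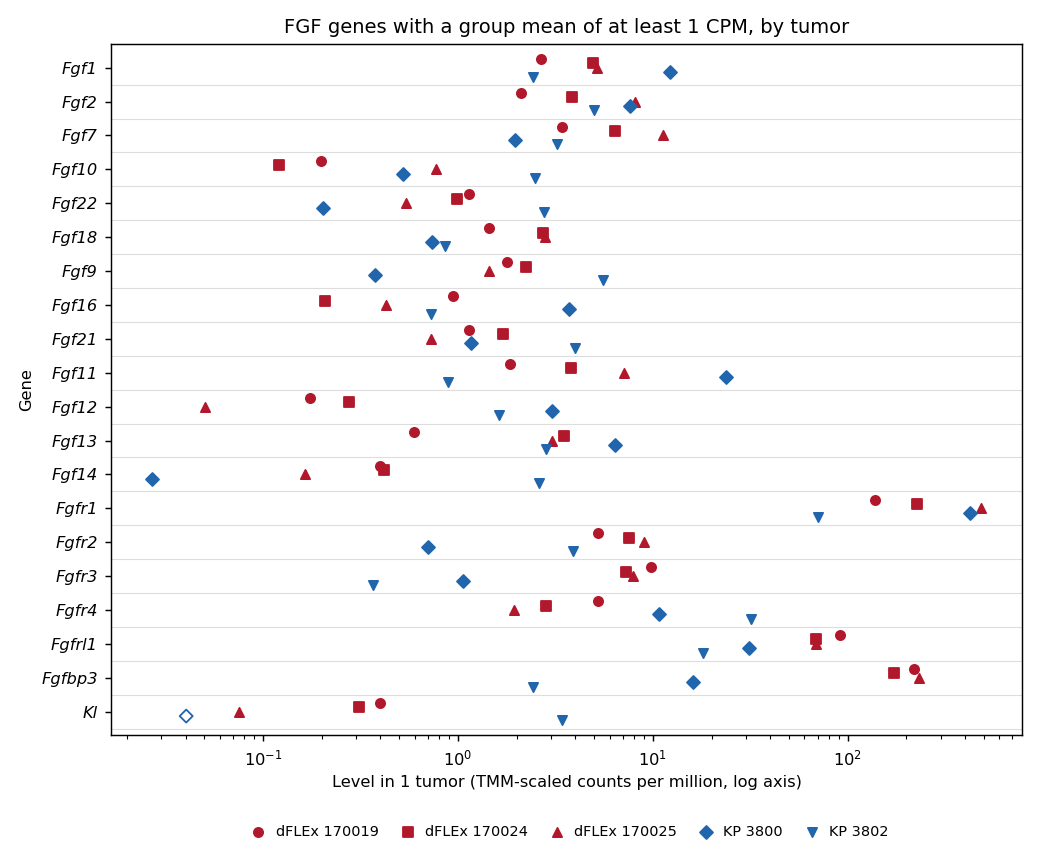
Level of each FGF gene with a group mean of at least 1 CPM (y axis) in each of the 5 tumors (x axis, TMM-scaled CPM, log axis), red for dFLEx and blue for KP, with an open symbol at the level of 3 counts where a tumor had none. For Fgfbp3 and Fgfr3 the red and blue symbols lie far apart, with the lowest dFLEx value 10.8-fold and 6.86-fold above the highest KP value, whereas for Fgfr1 they interleave.

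The receptors differed from one another. Fgfr1, the mesenchymal receptor, was the main receptor transcript and its groups overlapped fully. It had 138, 227 and 483 CPM in the dFLEx tumors and 425 and 70.7 CPM in the KP tumors. The highest KP tumor therefore lay between the upper dFLEx tumors, and 3802 lay below them all. Its log2 fold change was 0.19 (SE 0.86, edgeR adjusted p = 0.977) and became -0.57 without 3802 and 2.17 without 3800.

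Fgfr3, a receptor that restrains chondrocyte proliferation in the growth plate, was higher in each dFLEx tumor. Its level was 9.75, 7.28 and 7.90 CPM there, against 1.06 and 0.366 CPM in the KP tumors, the last from 9 counts. The dFLEx tumors lay within 1.34-fold of one another, and the lowest of them was 6.86-fold above 3800. This gave a log2 fold change of 3.51 (SE 0.79, edgeR adjusted p = 0.139), or 2.98 without 3802 (edgeR adjusted p = 0.153). The adjusted p ran from 1.68e-17 to 0.426 over the alternatives, of which 5 called it. Its exons overlap those of G630022F23Rik on the opposite strand over 998 bases (13.9% of its length), and counting ignored strand.

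Chondrocyte markers differed between groups in the direction of Fgfr3. Of the 7 listed, 6 were higher in dFLEx tumors and 5 lay above both KP tumors, with a summed level of 754 to 2514 CPM against 157 to 175 CPM. Within the groups the order differed. Of the dFLEx tumors, 170019 had the most Fgfr3 but the lowest sum, and 3800 had more Fgfr3 than 3802 but a lower sum. The cartilage matrix gene Acan passed the test (log2 fold change 8.52, edgeR adjusted p = 0.0248), whereas the cartilage regulator Sox9 was lower in each dFLEx tumor and Matn1 was at 0 in 3800. Other marker lists lay the same way. Of 6 osteoblast markers 3 were above both KP tumors, among them Alpl, which passed the test (log2 fold change 6.19, edgeR adjusted p = 0.048), although Spp1 lay below and the summed level overlapped. The summed levels of the adipocyte, pericyte, endothelial and Schwann cell lists also lay above both KP tumors in every dFLEx tumor, at 186 to 238 CPM against 7.99 to 80.2 CPM for the adipocyte list. Gene by gene, 5 of 6 adipocyte, 2 of 5 pericyte, 3 of 7 endothelial and 2 of 5 Schwann cell markers did so. Most of the pericyte sum in the dFLEx tumors was Rgs5, with 826, 473 and 776 CPM against 249 and 16.5 CPM. The pericyte marker Cspg4 was lower in dFLEx tumors (log2 fold change -0.36), and the groups overlapped for it. The part of these lists in the level of Fgfr3 was not tested.

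Fgfr4, the receptor of muscle progenitors, had the opposite order. It had 5.2, 2.83 and 1.93 CPM in the dFLEx tumors, against 10.8 and 31.9 CPM in the KP tumors. The lower KP tumor was 2.07-fold above the highest dFLEx tumor, so the groups did not overlap, but the KP tumors differed 2.96-fold from each other. The log2 fold change was -2.68 (SE 0.74, edgeR adjusted p = 0.215) and -1.68 without 3802 (edgeR adjusted p = 0.355). Over the alternatives the adjusted p ran from 0.000376 to 0.718, with 4 of them calling the gene.

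Markers of muscle progenitors differed between groups in the direction of Fgfr4. All 6 were lower in dFLEx tumors and 5 lay below both KP tumors in each of them, with a summed level of 26.2 to 94.2 CPM against 631 to 739 CPM. Within the groups the order differed. Of the dFLEx tumors, 170019 had the most Fgfr4 but the lowest sum. Tumor 3802 had more Fgfr4 than 3800 but a lower sum. The myogenic factor Myf5 was at 0.174, 0.798 and 0.39 CPM against 50 and 22.2 CPM, and no marker of the list was at 0. Their part in the level of Fgfr4 was not tested. Markers of mature myocytes went the other way, with 8 of 8 higher in dFLEx tumors and sums of 10020 to 37738 CPM against 1433 to 4986 CPM.

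Fgfr2, whose isoforms divide epithelial from mesenchymal ligand use, was low but separated. It had 5.22, 7.51 and 9.01 CPM in the dFLEx tumors and 0.699 and 3.90 CPM in the KP tumors. The lowest dFLEx tumor exceeded 3802 only 1.34-fold. The log2 fold change was 1.67 (SE 0.87, edgeR adjusted p = 0.607), and 3.39 without 3802. The table does not separate the isoforms, and the epithelial splicing factors Esrp1 and Esrp2 did not exceed 1.42 and 0.277 CPM in any tumor. The annotated gene shares 314 exonic bases with Ctbp2 on the same strand.

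Fgfrl1, which lacks the kinase domain and is regarded as a decoy receptor, was abundant in all tumors. It had 91.8, 68.7 and 69.1 CPM in the dFLEx tumors and 31.0 and 18.1 CPM in the KP tumors. All dFLEx tumors were at least 2.22-fold above 3800, the higher KP tumor. On the log2 scale the fold change was 1.64 (SE 0.59, edgeR adjusted p = 0.366), and 1.32 without 3802.

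Compared per kilobase of exon, the make-up of the kinase receptors set 1 KP tumor apart from the others. Fgfr1 made up 80.7%, 90.0% and 95.1% of the summed level of Fgfr1 to Fgfr4 in the dFLEx tumors, 93.0% in 3800 and 43.2% in 3802. Fgfr4 made up 54.2% in 3802, 6.57% in 3800 and between 1.06% and 8.47% in the dFLEx tumors. Only for Fgfr3 did the shares follow the groups, with 7.86%, 3.99% and 2.14% in dFLEx tumors against 0.320% and 0.308%. The summed level, 17.3, 25.5 and 51.5 CPM per kilobase against 46.3 and 16.6, overlapped.

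**Figure D3:**
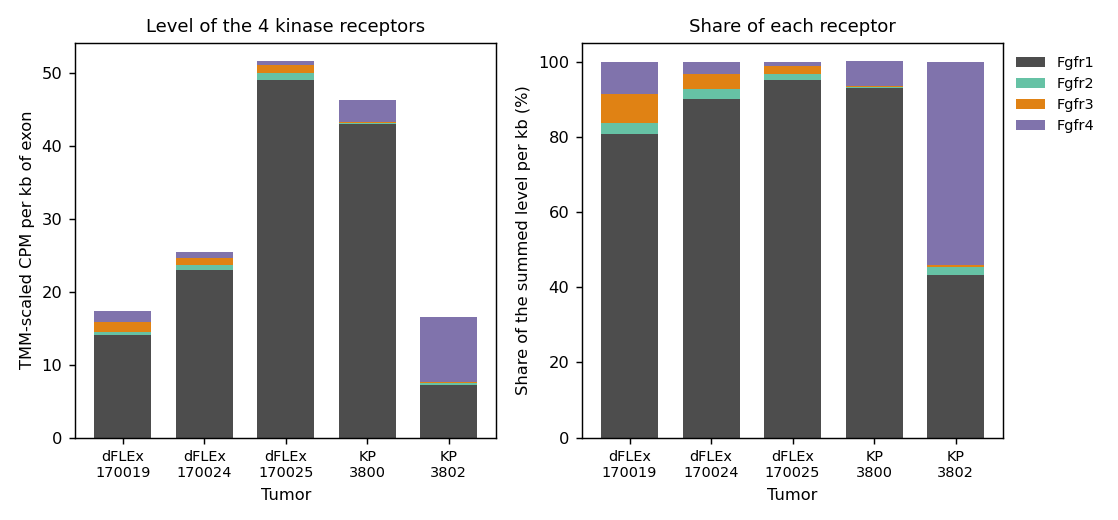
Summed level of the 4 kinase receptor genes per kilobase of exon in each tumor (left, y axis in TMM-scaled CPM per kilobase) and the share of each gene in it (right, percent). Fgfr1 fills most of 4 bars, with 80.7% to 95.1%, while Fgfr4 makes up 54.2% of the bar of KP tumor 3802.

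Secreted ligands were low throughout. Summed per kilobase, the 18 genes reached 6.97, 9.42 and 10.5 CPM in the dFLEx tumors and 8.68 and 13.2 CPM in the KP tumors, so the groups overlapped. Only Fgf7 and Fgf18 lay higher in every dFLEx tumor. Fgf7, a stromal ligand that acts on epithelium, had 3.43, 6.38 and 11.3 CPM against 1.97 and 3.21 CPM, with a log2 fold change of 1.45 (SE 0.76, edgeR adjusted p = 0.611), or 1.85 without 3802. Its lowest dFLEx tumor was 1.07-fold above 3802, a narrow gap. Fgf18, a ligand of developing cartilage and bone, had 1.44, 2.74 and 2.80 CPM against 0.739 and 0.853 CPM, with a log2 fold change of 1.55 (SE 0.82, edgeR adjusted p = 0.620), or 1.67 without 3802. The KP tumors lay close together, and the lowest dFLEx tumor was 1.69-fold above them.

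Fibroblast markers differed between groups in the direction of Fgf7. All 6 were higher in dFLEx tumors and 4 lay above both KP tumors, with no gene at 0 and Pdgfra and Dcn overlapping. The summed level was 1669 to 5660 CPM against 842 to 1163 CPM, most of it from Col1a1 in the dFLEx tumors. Col1a1 had 893, 2252 and 5105 CPM against 677 and 442 CPM. Dcn had 438, 381 and 228 CPM against 99.1 and 566 CPM, so it fell across the dFLEx tumors in the order in which Fgf7 rose. The part of the fibroblast markers in the level of Fgf7, and that of the chondrocyte markers in the level of Fgf18, was not tested.

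Among all secreted ligands per kilobase, Fgf18 and Fgf7 took 17.4% and 15.2% of the sum in 170019, 24.5% and 20.9% in 170024, and 22.5% and 33.3% in 170025. Fgf21 took 17.3%, 19.0% and 7.33% in these tumors, the first of them above Fgf7. In 3800 Fgf18 and Fgf7 took 7.17% and 7.01%, and Fgf16 and Fgf1 came first with 26.1% and 25.8%. In 3802 Fgf21 came first with 31.7%, so each KP tumor had other leading ligands than Fgf18 and Fgf7.

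Fgf1 and Fgf2 overlapped between groups. Fgf1, which binds all FGF receptors, had 2.66, 4.94 and 5.18 CPM in the dFLEx tumors against 12.2 and 2.44 CPM. Fgf2, the other ligand without a signal peptide, had 2.11, 3.83 and 8.12 CPM against 7.6 and 5.00 CPM. Their log2 fold changes of -0.79 (SE 0.80) and -0.43 (SE 0.74) were within the spread between tumors, and were 0.97 and 0.08 without 3800 and -1.50 and -0.68 without 3802. Fgf2 shares 640 exonic bases with Nudt6 on the opposite strand.

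The highest tumor was 3802 for the low ligands Fgf9, Fgf22 and Fgf10. It was also 3802 for Fgf21. Among the ligands under a mean of 1 CPM, 3802 was highest for Fgf4, Fgf6, Fgf8, Fgf15, Fgf20 and Fgf23, but not for Fgf3, Fgf5 or Fgf17. In 3802, however, Fgf4 and Fgf20 stood at only 0.475 and 0.905 times the per-kilobase background of that tumor. There Fgf6, Fgf15, Fgf8 and Fgf23 stood at 3.18, 3.23, 6.47 and 6.91 times this background. For Fgf9 and Fgf22 the KP tumors bracketed the dFLEx tumors. Fgf9, a ligand of the developing skeleton, had 1.79, 2.24 and 1.44 CPM against 0.376 and 5.53 CPM, and its log2 fold change of -0.69 became 2.29 without 3802. Fgf22, a relative of Fgf7, had 1.14, 0.988 and 0.542 CPM against 0.202 and 2.76 CPM, and its log2 fold change of -0.72 became 2.15 without that tumor. Fgf10, the ligand that starts limb outgrowth, had 0.199, 0.121 and 0.768 CPM against 0.524 and 2.48 CPM, so the lower KP tumor fell among the dFLEx tumors, and its log2 fold change of -2.02 was -0.49 without 3802. Fgf16 had its highest level in 3800. It had 0.945, 0.208 and 0.428 CPM against 3.72 and 0.731 CPM, with a log2 fold change of -2.09 (SE 1.07, edgeR adjusted p = 0.602) that was -0.32 without 3800 and -2.81 without 3802.

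Fgf5, which ends the growth phase of hair, was nearly without counts in dFLEx tumors. It had 2 counts in each dFLEx tumor, below the 3 counts taken as the limit of a gene with none, and 44 and 13 counts in 3800 and 3802. In CPM these were 0.0498, 0.0347 and 0.0252 against 0.591 and 0.528, both under 1 CPM, and the gene is given for its unadjusted p alone, chosen after its values were seen. Relative to the per-kilobase background of each tumor, Fgf5 stood at 36.3 times in 3800 but only 1.97 times in 3802. In the dFLEx tumors it stood at 0.822, 0.918 and 3.55 times. From 6 counts against 57, the ratio of KP to dFLEx levels was 17.0, with a 95% counting interval of 7.35 to 48.2 that leaves out the spread between tumors. The interval takes counts as independent, but mates were counted as separate reads, so it is too narrow. The fitted log2 fold change was -3.88 (SE 1.49, edgeR adjusted p = 0.406), or -3.96 without 3802.

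The endocrine ligands and their co-receptors were not separated. Fgf21, a metabolic hormone that stressed muscle can release, had 1.14, 1.70 and 0.731 CPM against 1.16 and 3.98 CPM, with a log2 fold change of -1.10 (SE 0.87) that was 0.06 without 3802. Kl, the co-receptor of Fgf23, had 0.398, 0.312 and 0.0756 CPM in the dFLEx tumors, no count in 3800 and 3.41 CPM in 3802, so its direction rested on 3802. A count of 0 in 3800 was taken to allow up to 0.0403 CPM, a limit set as if counts were independent. Klb, the co-receptor of Fgf21, reached 0.504 CPM at most.

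Of the homologous factors, Fgf12 was separated. It had 0.174, 0.277 and 0.0504 CPM in the dFLEx tumors against 3.04 and 1.63 CPM, from 4 to 16 counts in dFLEx tumors and from 226 and 40 in KP tumors. The lower KP tumor was 5.86-fold above the highest dFLEx tumor. The log2 fold change was -3.80 (SE 1.07, edgeR adjusted p = 0.224), and -4.17 without 3802 (edgeR adjusted p = 0.0802). Over the alternatives the adjusted p ran from 0.00742 to 0.651, and 4 called it. The duplicates of 170024 differed 18.5-fold, with 0.0312 and 0.576 CPM, yet both lay below the KP tumors.

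The other homologous factors overlapped. Fgf11 had 1.84, 3.78 and 7.15 CPM against 23.8 and 0.894 CPM, which put the KP tumors at either end. Its log2 fold change of -1.54 (SE 1.15) turned to 2.42 without 3800 and was -2.46 without 3802. Fgf13, expressed in neurons and heart, had 0.597, 3.49 and 3.05 CPM against 6.38 and 2.84 CPM, and its log2 fold change of -0.96 was -0.09 without 3800 and -1.41 without 3802. Fgf14 had 0.398, 0.416 and 0.164 CPM against 0.0269 and 2.60 CPM, and its log2 fold change of -2.00 (SE 1.55) turned to 3.52 without 3802.

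The 11 members under a mean of 1 CPM in both groups were Fgf3, Fgf4, Fgf5, Fgf6, Fgf8, Fgf15, Fgf17, Fgf20, Fgf23, Fgfbp1 and Klb. Apart from Fgf5, all of them overlapped between groups. Fgf20 had counts in 3802 alone (4 counts, 0.905 times the per-kilobase background of that tumor). Fgf6, a ligand of regenerating muscle, had 0.174, 1.08 and 0.655 CPM against 0.0537 and 1.58 CPM.

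**Figure D4:**
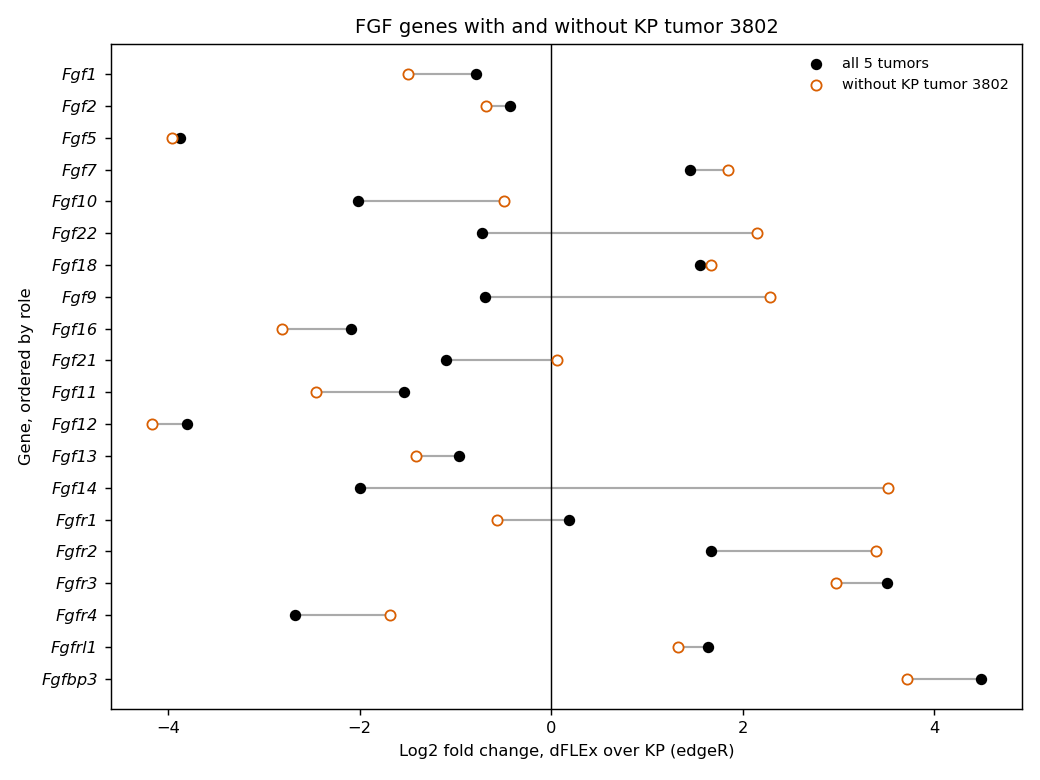
Log2 fold change of dFLEx over KP tumors (x axis) with all 5 tumors (black) and without KP tumor 3802 (orange circles), for 20 FGF genes (y axis); Kl, with no count in the remaining KP tumor, is left out. Fgfbp3, Fgfr3, Fgf12, Fgf5 and Fgf16 kept their side by over 2 log2 units, whereas Fgf9, Fgf14, Fgf21, Fgf22 and Fgfr1 crossed zero.

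Of 65 genes listed for the rest of the pathway, 63 were tested and 1 was called. This was Gpc3, glypican-3, a heparan sulfate proteoglycan of the cell surface and a growth regulator. It had 444, 903 and 1489 CPM in the dFLEx tumors and 1.07 and 3.54 CPM in the KP tumors, so the groups lay far apart. The log2 fold change was 8.69 (SE 1.11, edgeR adjusted p = 0.048), and 9.79 without 3802 (edgeR adjusted p = 0.0166). Leaving out any 1 of the other 4 tumors, upper-quartile scaling, library totals or robust dispersion each ended the call, with an adjusted p up to 0.179. At an unadjusted p under 0.05 there were 8 pathway genes higher and 8 lower (12.7% each, beside 5.65% and 4.93% of all tested genes). Levels were above both KP tumors in each dFLEx tumor for 16 of them (25.4%, beside 13.7%) and below for 8 (12.7%, near the 11.7% of all genes), and the median log2 fold change of the 63 was -0.11. By direction, 30 of the 63 were higher and 33 lower, where 10803 and 13940 of the 24743 tested genes were.

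Other carriers of heparan sulfate, on which FGF and receptor assemble, differed in direction. Of 12 core proteins, 4 were higher and 8 lower in dFLEx tumors. Syndecan-3 (Sdc3) had 344, 550 and 1322 CPM against 181 and 69.2 CPM, with a log2 fold change of 2.56 (SE 0.82, edgeR adjusted p = 0.292), or 2.05 without 3802 and 3.59 without 3800. Syndecan-2 (Sdc2) had 28.2, 33.6 and 36.7 CPM against 257 and 63.8 CPM, with a log2 fold change of -2.29 (SE 0.68, edgeR adjusted p = 0.255) that was -0.80 without 3800 and -2.95 without 3802. Both were separated between groups, Sdc3 above and Sdc2 below. Glypican-1 (Gpc1) overlapped, with 43.8, 98.4 and 90.7 CPM against 500 and 79.4 CPM, and its log2 fold change of -1.90 (SE 0.81) was 0.13 without 3800 and -2.67 without 3802.

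Of 14 tested enzymes that build or edit heparan sulfate, 7 were higher and 7 lower, none past the threshold. The sulfotransferase Ndst3 came closest, with 0.672, 0.659 and 0.441 CPM against 11.1 and 5.16 CPM for a log2 fold change of -3.78 (SE 0.71, edgeR adjusted p = 0.0985). Its relative Ndst4 had 0.821, 0.225 and 0.126 CPM against 2.03 and 2.52 CPM, with a log2 fold change of -2.55 that was -2.38 without 3802. Ndst1 and Ndst2, the widely expressed members of this family, overlapped. Without 3802, Ndst3 passed the threshold (edgeR adjusted p = 0.0314).

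**Figure D5:**
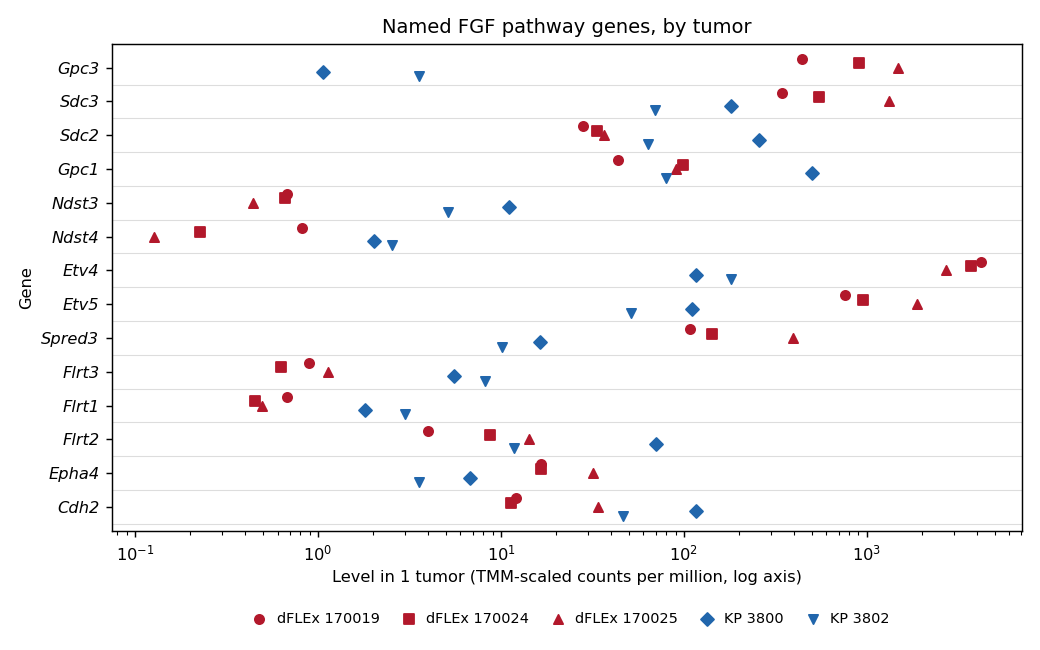
Level of the 14 named pathway genes (y axis) in each of the 5 tumors (x axis, TMM-scaled CPM, log axis), red for dFLEx and blue for KP. Gpc3 shows the widest gap, from 3.54 CPM in KP tumor 3802 to 444 CPM in dFLEx tumor 170019, and Ndst3, Flrt3 and Sdc2 lie lower in every dFLEx tumor.

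Among 13 tested feedback and target genes of FGF signaling, 8 were higher and 5 lower in dFLEx tumors, none past the threshold in edgeR with all tumors. DESeq2 on the tumor sums called Etv4, Etv5, Spred3 and Flrt3. The ETS factor genes Etv4 and Etv5 and the RAS inhibitor gene Spred3, which are also known targets of CIC, lay above both KP tumors in every dFLEx tumor, at edgeR adjusted p = 0.0517, 0.109 and 0.122. Without 3802 Etv4 passed the threshold (log2 fold change 4.94, edgeR adjusted p = 0.034), while Etv5 and Spred3 had log2 fold changes of 3.44 and 3.73. The Flrt genes, whose proteins bind FGF receptors, had log2 fold changes of -2.94 for Flrt3 (SE 0.68, edgeR adjusted p = 0.151), -2.14 for Flrt1 (SE 0.83) and -2.20 for Flrt2 (SE 0.88). Flrt3 had 0.896, 0.624 and 1.13 CPM against 5.52 and 8.13 CPM. Flrt1 was separated too. Flrt2 overlapped, with 3.98, 8.74 and 14.2 CPM against 70.7 and 11.8 CPM, and its log2 fold change was -0.22 without 3800. Without 3802 the log2 fold changes were -2.62, -1.72 and -2.96 in Flrt3, Flrt1 and Flrt2.

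None of the 14 adaptors and signal transducers had an unadjusted p under 0.05, and Frs2, which docks on the receptor, had 9.85, 14.7 and 45.1 CPM against 39.4 and 10.7 CPM. The 5 membrane partners of FGF receptors were all separated, 3 above and 2 below, where 13.7% and 11.7% of all tested genes were. The ephrin receptor Epha4 had 16.6, 16.6 and 31.7 CPM against 6.77 and 3.54 CPM, with a log2 fold change of 2.07 (SE 0.69, edgeR adjusted p = 0.317), or 1.69 without 3802 and 2.78 without 3800. N-cadherin (Cdh2), which stabilizes Fgfr1 at the surface, had 12.1, 11.4 and 33.8 CPM against 117 and 46.4 CPM, with a log2 fold change of -2.09 (SE 0.73, edgeR adjusted p = 0.342) that was -1.10 without 3800 and -2.59 without 3802. No splicing regulator of the receptor exons had an unadjusted p under 0.05.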

How the data were processed

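Bulk RNA-seq of 5 mouse tumors was analysed. The authors trimmed reads (Trimmomatic 0.39), aligned them with STAR 2.7.10a to GRCm39 extended by the CIC::DUX4 construct, and deposited raw counts per gene from featureCounts 2.0.3. Per the file headers, strand was ignored, mates were counted as separate reads, and reads with several alignments or over several genes were dropped, so overlapping and duplicated genes lose reads and counting error exceeds what totals imply. Gene lengths are the exonic bases deposited with the counts. Symbols came from GENCODE M39 (98.7% of features).

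Libraries of 1 tumor come from 1 RNA, so they were summed and the tumor was the replicate (dFLEx n = 3, KP n = 2). P-values measure the spread between these tumors. Genes were filtered with filterByExpr, scaled by TMM and compared in edgeR 4.0.16 (glmQLFit, glmQLFTest), p-values were adjusted by Benjamini-Hochberg across the 24743 genes tested, and the threshold was 0.05. Levels are TMM-scaled CPM. The SE is the size of the log2 fold change over the square root of F. A count of 3 corresponds to 0.0378 to 0.122 CPM per tumor. Single levels were also compared by an exact two-sided permutation test (SciPy 1.17.1). Alternatives included DESeq2 1.42.0, limma-voom (limma 3.58.1), other scalings and filters, each library as a sample, and each tumor left out. The study names DESeq2 without stating how duplicates were treated. The script was tested on simulated data.

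Values per tumor are given for members with a mean of at least 1 CPM in a group, and for at most the 3 smallest unadjusted p under 0.05 per pathway list and direction, plus every called gene. Members, pathway lists and marker lists were chosen with earlier results of these data known. The second library of tumor 3802 and 2 listed pathway genes, Spry3 and Hs6st3, were not analysed here. A further allele of the KP genotype is not reported here.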

Additional observations from a re-analysis of the deposited data

How the results depend on the processing

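With 3 tumors against 2, the unit of replication and the test set the number of calls, and whichever KP tumor is left out, the other is assumed to vary like the dFLEx tumors. The count of FGF genes called, 0 as reported, was 7 with every library as a sample, 10 with DESeq2 on those libraries, 4 with DESeq2 on tumor sums, 1 with limma-voom and 2 with no filter, and 0 without any 1 tumor (range 0 to 0). For the pathway genes the count of 1 became 19, 28, 10, 8 and 5 in these settings, 0 with the upper quartile, library totals or robust dispersion, and 0 to 3 without any 1 tumor. Over all genes the count of 45 became 3344, 5042, 1516, 543 and 880, 80 with a mean minimum of 1 CPM, 11 with robust dispersion, and 0 to 414 without any 1 tumor.

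The duplicate number, shared by both groups, was tried as a replicate block over libraries, which called 5 FGF genes, 16 pathway genes and 2476 genes in all. Deviations of same-numbered libraries did not go together between groups (r = -0.00701 over genes), so the number pairs nothing.

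Of 21 FGF genes followed over the alternatives, 12 kept their direction in each setting that tested them, which for Fgf5 were 12 of the 18 and for Fgf10 17. Without 3802 the log2 fold change reversed in Fgf22, Fgf9, Fgf21, Fgf14, Fgfr1 and Kl, the last set by 0 counts in 3800, and without 3800 in Fgf1, Fgf2, Fgf11 and the pathway gene Gpc1. With limma-voom it was 0.35 in Fgf22, 1.12 in Fgf9, 2.24 in Fgf14 and 0.31 in Kl. The replicate block gave 0.01 for Fgf9. Fgfr1 was -0.10 and -0.12 with every library as a sample in edgeR and DESeq2, -0.11 with the block, -0.01 with library totals and -0.44 without 170025. Leaving out any 1 tumor gave a range of -1.50 to 0.97 in Fgf1, -1.09 to 0.08 in Fgf2, -1.48 to 2.15 in Fgf22, -1.44 to 2.29 in Fgf9, -1.58 to 0.06 in Fgf21, -2.46 to 2.42 in Fgf11, -2.84 to 3.52 in Fgf14, -0.57 to 2.17 in Fgfr1, -3.56 to 7.05 in Kl and -2.67 to 0.13 in Gpc1. The cause was not tested.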

Other observations

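Duplicate libraries of 1 RNA show how far the low FGF levels can be read. Fgfbp3 differed between duplicates by 1.02-fold to 1.10-fold in the 4 tumors with both libraries, and Fgfr1 by 1.00-fold to 1.22-fold. In tumor 170019 the duplicates of Fgf22 had 0.478 and 1.92 CPM, a 4.02-fold difference, and those of Fgf13 had 0.955 and 0.213 CPM, a 4.48-fold difference. Fgf23 had 0.860 CPM in one library of that tumor and no count in the other. In tumor 3800 the duplicates of Fgf10 had 0.120 and 0.771 CPM.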
